A study of Mus musculus with 2 samples.

Results

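Wnt ligands, their Frizzled receptors and the secreted proteins that tune both were followed cell class by cell class in mouse ear skin with and without allergic contact dermatitis (ACD). The module took in every gene whose symbol is Wnt, Fzd, Sfrp, Dkk or Rspo followed by a number and, in some cases, the letter a or b. This rule found 41 of the 27998 genes of both count tables, made up of 19 Wnt ligands, 10 Frizzled receptors, 4 secreted frizzled-related proteins (SFRPs), 4 Dickkopf proteins and 4 R-spondins. All 41 are protein-coding and had at least 1 read molecule (a unique molecular identifier, UMI) in the cells kept, and 32 had at least 50 UMIs over both libraries.

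Wnt proteins are lipid-modified secreted glycoproteins that bind a Frizzled receptor, in the canonical branch together with the co-receptor Lrp5 or Lrp6, which spares β-catenin from degradation and lets it act with TCF/LEF factors on DNA. SFRPs bind Wnt proteins outside the cell, Dkk1, Dkk2 and Dkk4 act on Lrp5 and Lrp6, and R-spondins bind Lgr receptors and keep Frizzled receptors at the cell surface by taking away the ubiquitin ligases Rnf43 and Znrf3. In skin the pathway is known for hair follicle induction and growth and for the dermal papilla at the follicle base, and in cartilage for the development of the perichondrium and the joint.

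The study asked which cells of the skin respond in ACD, a T cell-driven reaction to a small chemical hapten, by sequencing single cells of ear skin. The control library came from healthy ear skin of ICR mice, an outbred strain, aged 7 to 8 weeks. The ACD library came from ear skin of male ICR mice of the same age that had been sensitized with 1.0% DNFB (2,4-dinitrofluorobenzene) on the back and challenged with 0.2% DNFB on the ear 6 days later, and was taken 60 hours after the challenge. The labels name no transgene or deletion in either library, the skin was digested with collagenase D and DNase1, and the number of ears pooled per library is not given in the sources used here.

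There was 1 library per condition, so no difference could be set against the spread between mice, no test was made and no p-value is given. The filter kept 12213 of 12895 control barcodes and 11665 of 13163 ACD barcodes, with a median of 6850 and 7447 UMIs per cell. The libraries shared 50 barcode sequences before and 47 after the filter. Together the members took 120628 of 92188895 UMIs in control and 87061 of 99649023 in ACD. Cell classes were rebuilt by clustering without the members and carry the suffix "-like", while clusters called "-led" have no name beyond their leading genes. They may still be close to a named subset. The fibroblast subset led by Stc1 and F13a1 matched the reticular/papillary marker list best, at a mean log2 fold of 0.346 where a name needed 0.5. The 384 control and 377 ACD cells with markers of more than 1 class and the 33 and 49 unnamed cells were set aside.

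Fibroblast-like cells numbered 3707 in control and 1653 in ACD, chondrocyte-like cells of the ear cartilage 5152 and 3730, and T, NK or innate lymphoid (T/NK/ILC)-like cells 862 and 3463. The level of a gene is its UMIs per 1000000 UMIs of the class (CPM), and parentheses after levels and log2 ratios (ACD over control) give 95% intervals that cover counting error only. Since the kit counts molecules at the 3′ end, levels of a gene were compared between classes and libraries but not between genes. A gene was called higher or lower where its level, with 1 CPM added, differed at least 2-fold and the class held at least 50 of its UMIs, and each called share of all genes is given beside the members' count. A shift in a class level cannot be told apart from a shift in the mix of cells within the class.

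For Sfrp2, Wnt2 and Wnt11, each called lower in at least 1 fibroblast subset, and for Dkk2, held mainly by fibroblast-like cells, the promoter window is shown first (members picked with their values known), from 250 bases before to 50 bases after the transcription start (RefSeq, GRCm38.p6). Capitals mark matches to CTTTGAT, the core of the TCF/LEF site (read as ATCAAAG on the other strand), or to the TATA box TATAAA. Each is written 5′ to 3′ on the strand of the gene.

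Sfrp2 (chr3:83766071-83766370, plus strand):
Sfrp2: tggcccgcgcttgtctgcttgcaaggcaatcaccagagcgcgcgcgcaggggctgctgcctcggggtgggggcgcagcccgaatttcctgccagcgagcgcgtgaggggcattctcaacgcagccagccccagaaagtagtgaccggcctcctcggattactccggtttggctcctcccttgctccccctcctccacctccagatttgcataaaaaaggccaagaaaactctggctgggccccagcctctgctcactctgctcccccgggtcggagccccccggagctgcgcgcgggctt
Wnt2 (chr6:18030396-18030695, minus strand):
Wnt2: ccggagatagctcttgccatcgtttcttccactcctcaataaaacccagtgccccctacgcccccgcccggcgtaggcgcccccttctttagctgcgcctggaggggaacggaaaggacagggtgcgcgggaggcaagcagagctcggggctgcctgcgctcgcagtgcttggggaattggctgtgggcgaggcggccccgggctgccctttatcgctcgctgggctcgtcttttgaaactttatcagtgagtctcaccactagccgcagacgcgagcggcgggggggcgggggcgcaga
Wnt11 (chr7:98834862-98835161, plus strand, the upstream start):
Wnt11: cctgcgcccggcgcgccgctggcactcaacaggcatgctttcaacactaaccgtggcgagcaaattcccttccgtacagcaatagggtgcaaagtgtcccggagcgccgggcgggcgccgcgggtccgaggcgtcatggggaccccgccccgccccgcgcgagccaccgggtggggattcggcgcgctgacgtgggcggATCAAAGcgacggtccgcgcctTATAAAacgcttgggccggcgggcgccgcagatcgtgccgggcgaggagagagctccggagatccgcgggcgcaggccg
Dkk2 (chr3:132085042-132085341, plus strand):
Dkk2: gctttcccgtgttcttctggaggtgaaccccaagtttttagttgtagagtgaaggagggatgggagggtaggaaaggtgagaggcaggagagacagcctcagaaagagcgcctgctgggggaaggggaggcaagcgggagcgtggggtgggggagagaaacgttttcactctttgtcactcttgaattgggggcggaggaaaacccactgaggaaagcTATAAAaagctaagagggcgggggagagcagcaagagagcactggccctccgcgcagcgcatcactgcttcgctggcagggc

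The Wnt11 window holds both motifs, CTTTGAT starting at -51 and TATAAA at -29 from the start site, and the Dkk2 window holds TATAAA at -32. The Sfrp2 and Wnt2 windows hold neither, nor the AP-1 site TGANTCA or the STAT site TTCNNNGAA, all searched on both strands. Member windows on chromosome 18, which holds Fzd8 and Wnt8a, were left out, while the set of all windows was not filtered by chromosome. Windows were used for 27 members (30 windows). Of these windows, 2 held CTTTGAT and 4 TATAAA, against 3.73% and 13.6% of all 32851 windows. TGANTCA and TTCNNNGAA were held by 1 each, against 7.81% and 8.3% of all. The member windows were richer in G and C, with a median of 69.8% against 52.7% over all windows and 28 against 7 CpG dinucleotides. A match describes the letters of the window and does not show that a factor binds there.

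Members differed in the classes that held them. Of the members with at least 100 UMIs over both libraries, 10 had their highest control level, among the broad classes, in fibroblast-like cells and 3 in chondrocyte-like cells. Most members of that depth peaked in a smaller class.

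**Figure D1:**
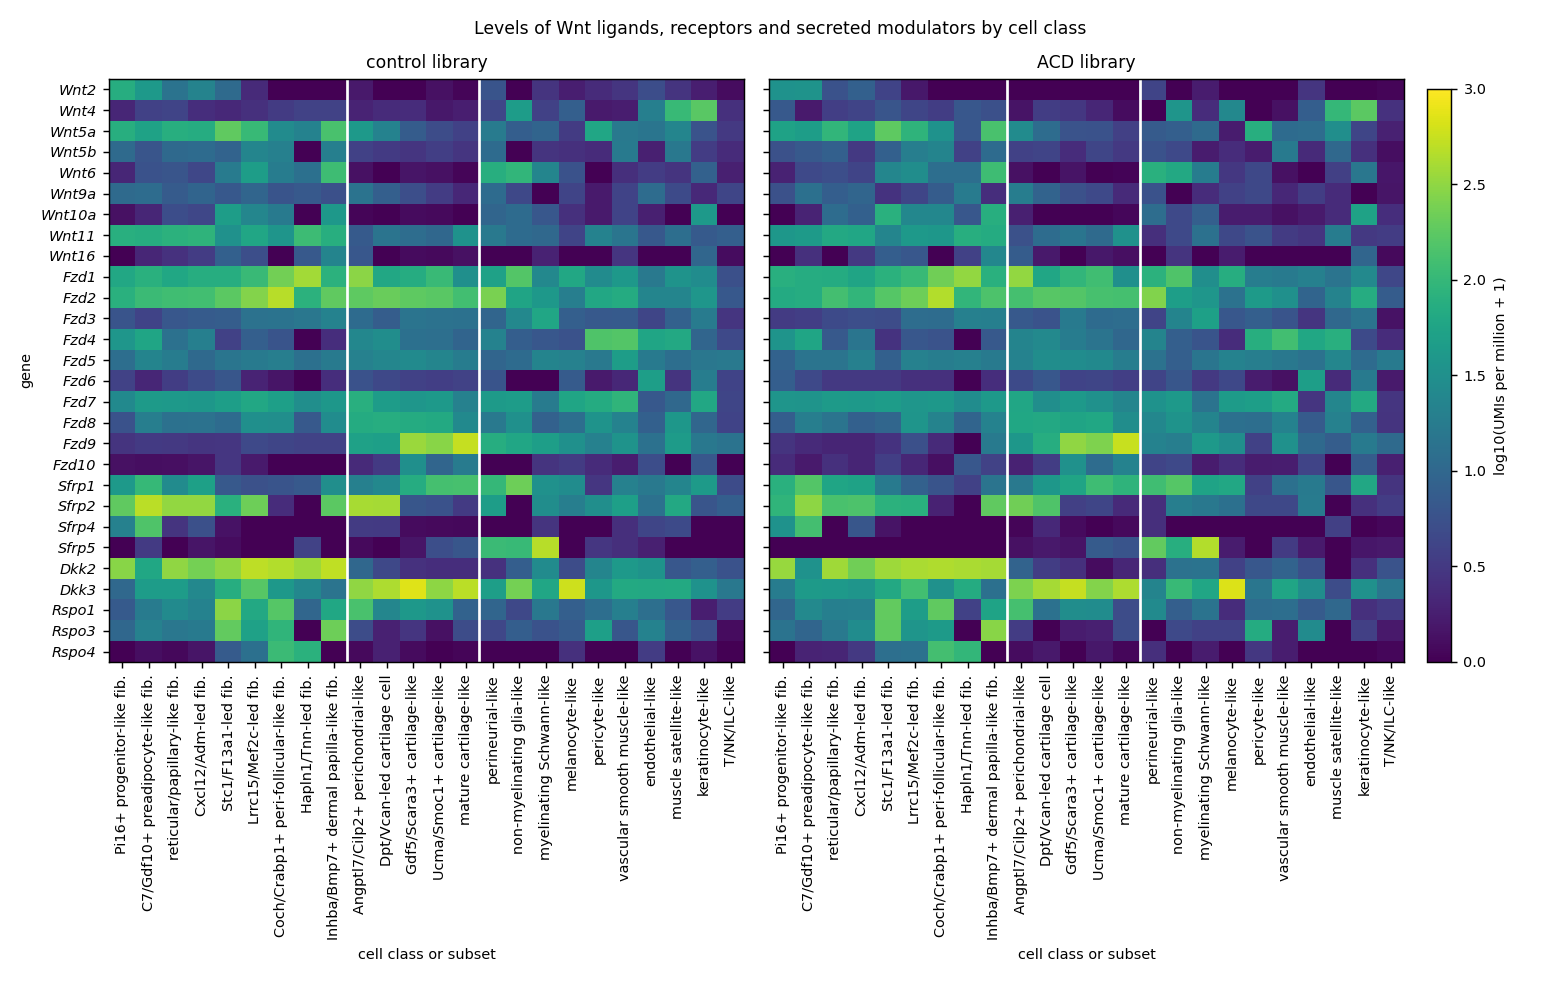
Level of each member with at least 100 UMIs in a class (rows) in each class and subset (columns), control and ACD in separate panels, as color on a log scale of CPM. The Sfrp2, Dkk2 and Rspo rows are bright in fibroblast-like subsets, the Fzd9 and Dkk3 rows in cartilage states and the Sfrp5 row in myelinating Schwann-like cells, in both libraries.

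Among the ligands, Wnt5a (chr14:28504750-28527448), which acts mainly through non-canonical, β-catenin-independent signaling, was a ligand of the fibroblast subset led by Stc1 and F13a1. Its level there was 182 CPM (173 to 192) in control and 179 (162 to 197) in ACD, with a log2 ratio of -0.03 (-0.19 to 0.13), so the libraries did not differ beyond counting error. The dermal papilla-like subset marked by Inhba and Bmp7, which held 74 control and 96 ACD cells, was next with 138 CPM in control and 138 in ACD. The subset summed levels of the 7 dermal fibroblast markers fixed for naming ranged from 7400.1 to 104848 CPM in control, and the dermal papilla-like subset had the lowest sum. Over all fibroblast-like cells Wnt5a was 99.9 CPM in control and 75.2 in ACD, for a log2 ratio of -0.41 (-0.51 to -0.31). The Stc1/F13a1-led subset held 25.9% of the fibroblast-like UMIs in control and 13.6% in ACD. Pericyte-like cells also held Wnt5a, at 57.8 CPM in control and 74.1 in ACD.

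Wnt11 (chr7:98835112-98855195), another ligand of the non-canonical branch, was lower in ACD across much of the dermis. In reticular/papillary-like fibroblasts the level was 83.6 CPM (76.7 to 91.0) in control and 63.1 (52.2 to 75.5) in ACD. In the Pi16+ progenitor-like subset it was 77.4 CPM (67.4 to 88.4) in control and 37.9 (30.2 to 46.9) in ACD, for a log2 ratio of -1.03 (-1.41 to -0.66), and passed the call. All 9 fibroblast subsets compared held at least 50 Wnt11 UMIs, and in 6 of them the interval of the ratio lay below 0, in none above. Peri-follicular-like fibroblasts marked by Coch and Crabp1 did not share this difference, with 35.9 CPM in control and 38.2 in ACD. Mature cartilage-like cells held 33.1 CPM in control and 31.9 in ACD, for a log2 ratio of -0.05 (-0.23 to 0.12).

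Wnt2 (chr6:17988940-18030585), a canonical ligand, was highest in Pi16+ progenitor-like and C7/Gdf10+ preadipocyte-like fibroblasts. In Pi16+ cells its level was 73.4 CPM (63.7 to 84.2) in control and 32.8 (25.7 to 41.4) in ACD, for a log2 ratio of -1.16 (-1.57 to -0.77). In the C7/Gdf10+ subset it was 41.1 CPM (34.7 to 48.2) in control and 33.3 (27.2 to 40.4) in ACD, for a log2 ratio of -0.30 (-0.68 to 0.07). Pi16+ cells were above C7/Gdf10+ cells in control, with intervals that did not overlap, while the intervals overlapped in ACD. Wnt2 was also called lower in reticular/papillary-like (13.01 CPM in control and 4.77 in ACD), Cxcl12/Adm-led (20.8 CPM in control and 7.42 in ACD) and Stc1/F13a1-led fibroblasts (9.94 CPM in control and 3.05 in ACD). Of the 5 fibroblast subsets with at least 50 Wnt2 UMIs, 4 had an interval below 0.

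Wnt6 (chr1:74771892-74785322) and Wnt10a (chr1:74791516-74804179), canonical ligands of epithelium and follicle, lie 6.2 kb apart on the same strand. Wnt6 was highest in dermal papilla-like cells, at 115 CPM (91.0 to 143) in control and 115 (91.0 to 143) in ACD, the same within counting error. In these cells Wnt10a was 39.3 CPM (25.9 to 57.2) in control and 75.7 (56.5 to 99.2) in ACD, for a log2 ratio of 0.95 (0.25 to 1.67). The Stc1/F13a1-led subset had the highest control level of Wnt10a, 45.1 CPM (40.4 to 50.2) in control and 79.3 (68.2 to 91.7) in ACD, for a log2 ratio of 0.81 (0.54 to 1.08). Neither Wnt10a difference reached 2-fold, though both intervals lay above 0. Outside the fibroblast-like class Wnt6 was held by non-myelinating glia-like cells at 92.7 CPM in control and 63.0 in ACD. Perineurial-like cells, named for the sheath around nerve fascicles, had 74.2 CPM in control and 79.0 in ACD. Their summed dermal fibroblast markers were 72823 CPM in control and 48224 in ACD, against 76401 and 52820 in fibroblast-like cells. The part of fibroblasts or their RNA in the values of this class was not tested.

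Wnt4 (chr4:137277489-137299726), a ligand with both canonical and non-canonical actions, was the ligand of keratinocyte-like cells. Its level there was 170.3 CPM (154 to 187) in control and 173 (154 to 192) in ACD. Muscle satellite-like cells, the stem cells of the ear muscle, followed with 104 CPM in control and 99.5 in ACD. Neither class differed between libraries beyond counting error. Keratinocyte-like cells also held Wnt10a, at 40.8 CPM in control and 52.0 in ACD.

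The remaining ligands were sparse. Wnt5b, a relative of Wnt5a, was highest in Lrrc15/Mef2c-led and Coch/Crabp1+ fibroblasts, with 22.1 CPM in control and 18.02 in ACD and with 19.3 CPM in control and 21.3 in ACD. Wnt9a, a ligand of joint development, was highest in Angptl7/Cilp2+ perichondrial-like cells at 12.9 CPM (10.8 to 15.1) in control and 17.4 (15.1 to 20.1) in ACD, for a log2 ratio of 0.44 (0.12 to 0.76). Wnt16, known for its action on bone, was highest in dermal papilla-like cells, at 21.8 CPM in control and 23.3 in ACD, on 15 and 16 UMIs. Wnt2b had 82 UMIs in all, 52 of them in Coch/Crabp1+ fibroblasts. Wnt7b had 79 UMIs, of which 71 lay in keratinocyte-like cells. These last 2 distributions, and those of Wnt10b and Rspo2 below, were looked at after their values were seen. Wnt1, Wnt3, Wnt3a, Wnt7a, Wnt8a, Wnt8b and Wnt9b had between 2 and 34 UMIs over both libraries. Wnt8a had 0 control UMIs, which allows a level of up to 0.0325 CPM.

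**Figure D2:**
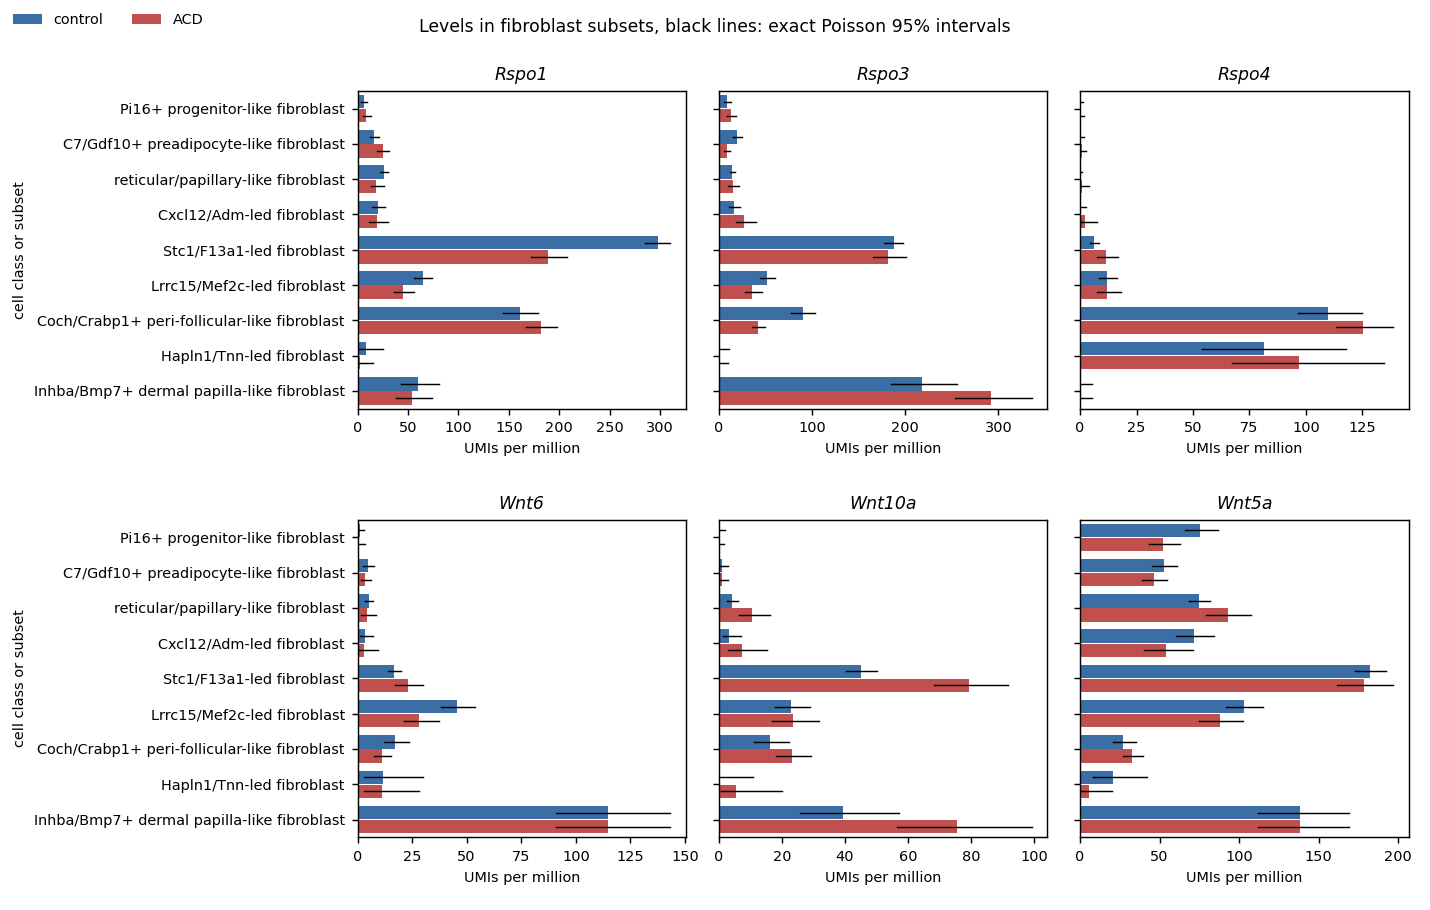
Levels of Wnt5a, Wnt6, Wnt10a, Rspo1, Rspo3 and Rspo4 in the 9 fibroblast subsets, in CPM from 0, for the control and the ACD library side by side, with 95% counting intervals as error bars. Rspo4 stands out in Coch/Crabp1+ and Hapln1/Tnn-led cells and Wnt6 in dermal papilla-like cells, and the Rspo3 bars of Coch/Crabp1+ cells stand at 90.2 in control and 42.0 in ACD.

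Of the 10 Frizzled receptors, all were measured over chondrocyte-like cells, and all but Fzd10, which had too few UMIs, over fibroblast-like cells. None was called over fibroblast-like cells (2.29% of all genes higher and 0.59% lower) or chondrocyte-like cells (1.17% and 0.07%). A list this short cannot set the receptors apart from other genes. Fzd9 (chr5:135248938-135251230) was a receptor of cartilage, and chondrocyte-like cells held 91.5% of its UMIs in control and 89.8% in ACD. In mature cartilage-like cells its level was 541 CPM (531 to 552) in control and 564 (552 to 575) in ACD. Gdf5/Scara3+ cartilage-like cells followed with 357 CPM in control and 316 in ACD, then Ucma/Smoc1+ cells with 289 CPM in control and 259.5 in ACD. Angptl7/Cilp2+ perichondrial-like cells had 51.6 CPM in control and 37.6 in ACD, and fibroblast-like cells 2.33 CPM in control and 2.26 in ACD. Mature, Gdf5/Scara3+ and Ucma/Smoc1+ cells kept this order in both libraries. The Dpt/Vcan-led cells had 48.5 CPM (39.9 to 58.5) in control and 73.8 (61.2 to 88.3) in ACD, for a log2 ratio of 0.61 (0.22 to 0.99), the highest Fzd9 ratio among the 5 cartilage states, while perichondrial-like cells had the lowest, a log2 ratio of -0.46 (-0.64 to -0.27). Fzd10 was likewise a cartilage receptor, highest in Gdf5/Scara3+ cells with 30.4 CPM in control and 32.0 in ACD.

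Fzd1 and Fzd2 were the broad receptors of mesenchyme. Fzd1 (chr5:4753839-4758035) was highest in the small Hapln1/Tnn-led fibroblast subset at 387 CPM (324 to 459) in control and 329 (273 to 394) in ACD, and next in perichondrial-like cells at 299 CPM (289 to 309) in control and 324 (313 to 335) in ACD. The intervals of these neighbors overlapped in ACD and not in control. Fzd2 (chr11:102604396-102608058) was highest in Coch/Crabp1+ peri-follicular-like fibroblasts, 472 CPM (444 to 502) in control and 456 (432 to 479.8) in ACD. Keratinocyte-like cells had 37.2 CPM in control and 71.1 in ACD of Fzd2, for a log2 ratio of 0.94 (0.54 to 1.33), a difference that did not reach 2-fold. Fzd7 was spread over vascular smooth muscle-like (89.6 CPM in control and 67.0 in ACD), perichondrial-like (77.7 CPM in control and 58.6 in ACD) and keratinocyte-like cells (62.0 CPM in control and 65.3 in ACD). Fzd8 had at least 50 UMIs in all 5 cartilage states, the mature one included. In the states other than the mature one its levels were similar, from 55.6 in ACD Gdf5/Scara3+ cells to 72.3 in control Dpt/Vcan-led cells.

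Other receptors marked vessels and nerves. Fzd4 (chr7:89404355-89413134), the receptor for norrin in blood vessels, was highest in vascular smooth muscle-like and pericyte-like cells. In pericyte-like cells it was 148 CPM (129 to 169) in control and 75.5 (62.0 to 91.2) in ACD, for a log2 ratio of -0.97 (-1.31 to -0.63), just under the call. The summed level of the 8 pericyte markers of the class was 10318 CPM in control and 5090.1 in ACD, with 6 of 8 lower in ACD, Rgs5 and Abcc9 among them, and their part in the Fzd4 difference was not tested. In vascular smooth muscle-like cells Fzd4 was 155 CPM (140.5 to 171) in control and 121 (109 to 136) in ACD. Endothelial-like cells, in which lymphatic and blood vessel cells were not separated, held Fzd6 at 47.1 CPM in control and 47.6 in ACD and Fzd4 at 56.8 CPM in control and 60.9 in ACD. Their cluster matched the lymphatic marker list best, at a mean log2 fold of 6.347, against 4.892 for the blood vessel list. Fzd3, a receptor of axon guidance, was highest in myelinating Schwann-like cells at 58.6 CPM (45.0 to 75.0) in control and 49.7 (38.8 to 62.8) in ACD. Fzd5 was highest in control vascular smooth muscle-like cells, 45.2 CPM (37.5 to 54.0) in control and 14.9 (10.6 to 20.3) in ACD, for a log2 ratio of -1.60 (-2.17 to -1.07).

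**Figure D3:**
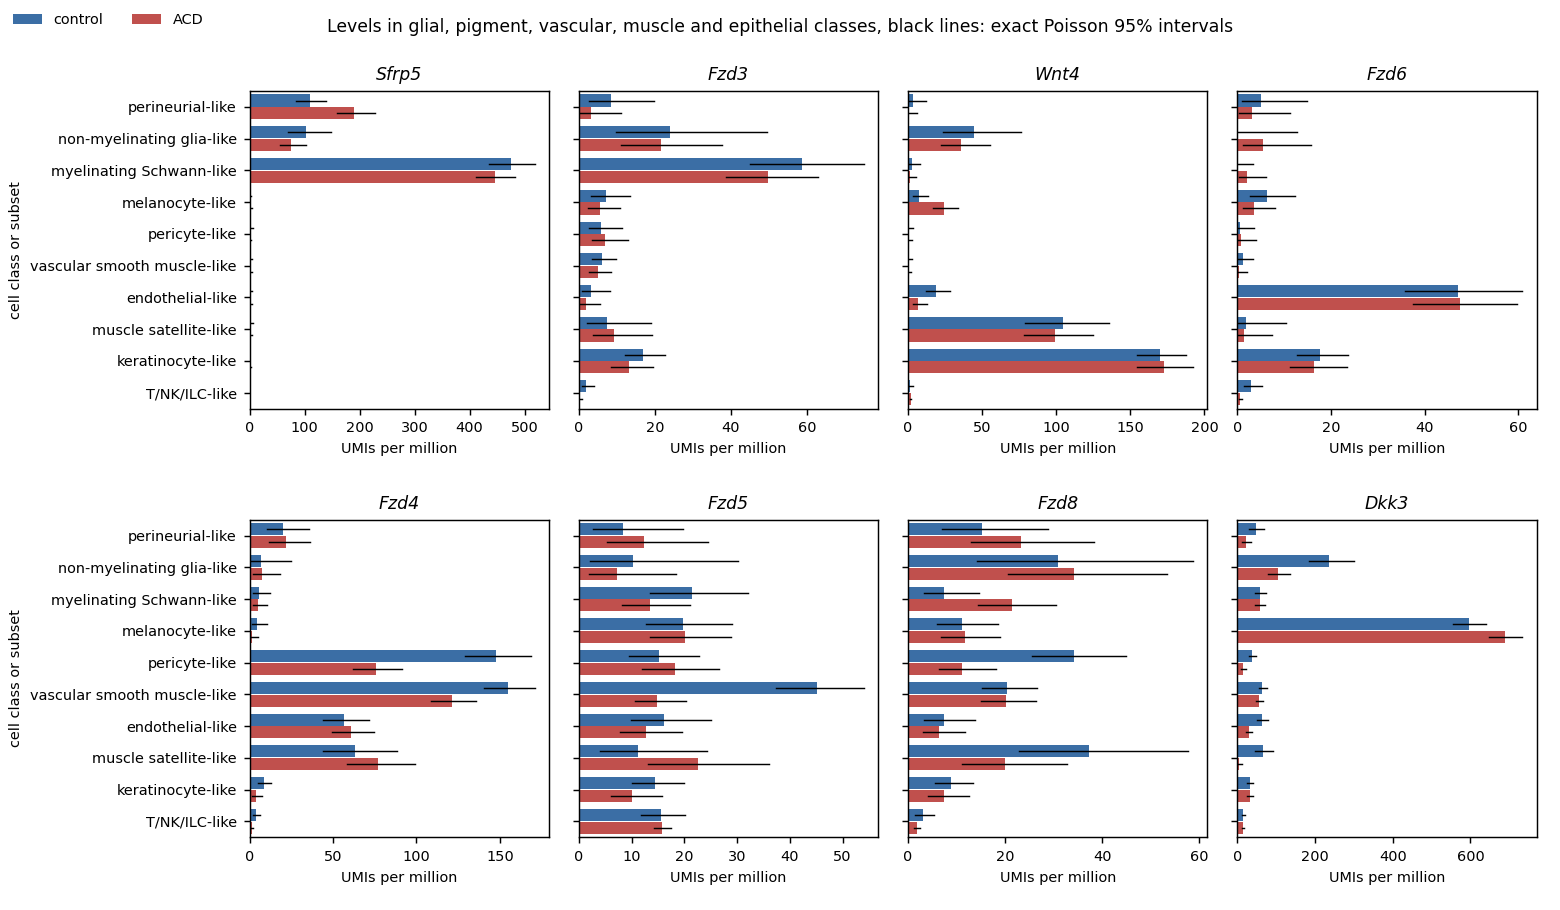
Levels of Sfrp5, Fzd3, Wnt4, Fzd6, Fzd4, Fzd5, Fzd8 and Dkk3 in 10 classes outside the fibroblast subsets, in CPM from 0, for control and ACD side by side with 95% counting intervals. Sfrp5 stands out in myelinating Schwann-like cells and Wnt4 in keratinocyte-like cells in both libraries, while Fzd4 in pericyte-like cells is 148 in control and 75.5 in ACD.

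Among the SFRPs, Sfrp2 (chr3:83766321-83774316) was lower in ACD across most of the mesenchyme that held it. In fibroblast-like cells its level was 224 CPM (218 to 229) in control and 122 (116 to 127) in ACD, for a log2 ratio of -0.88 (-0.95 to -0.81). The highest subset was C7/Gdf10+ preadipocyte-like fibroblasts with 483 CPM (460.2 to 506) in control and 309 (290.2 to 329.7) in ACD. Reticular/papillary-like cells had 324 CPM (310.3 to 338) in control and 136 (119.5 to 153) in ACD, for a log2 ratio of -1.26 (-1.45 to -1.07). Pi16+ (184 CPM in control and 90.3 in ACD), Cxcl12/Adm-led (327 CPM in control and 145 in ACD) and Lrrc15/Mef2c-led fibroblasts (218 CPM in control and 78.6 in ACD) were also called lower. Dermal papilla-like (175 CPM in control and 185 in ACD) and Stc1/F13a1-led cells (79.8 CPM in control and 82.8 in ACD) did not differ between libraries beyond counting error. Of 7 fibroblast subsets with at least 50 Sfrp2 UMIs, 5 had an interval below 0 and none above.

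The same gene was lower in the cartilage states that held it. Perichondrial-like cells had 406 CPM (395 to 418) in control and 222 (213 to 231) in ACD, for a log2 ratio of -0.87 (-0.94 to -0.80). The Dpt/Vcan-led cartilage cells had 394 CPM (369 to 421) in control and 150.1 (132 to 170.2) in ACD and passed the call. Mature cartilage-like cells had 2.26 CPM in control and 1.30 in ACD. T/NK/ILC-like cells, which should lack Sfrp2, had 6.81 CPM in control and 2.42 in ACD. In these lymphoid cells the summed level of the 7 dermal fibroblast markers, none of them at 0, was 2786 in control and 978 in ACD, and its part in the Sfrp2 ratio of fibroblast-like cells, which had far higher levels, was not tested.

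As a share of cells, each thinned to 2000 UMIs, Sfrp2 was found in 16.4% (15.2 to 17.6) of control and 10.7% (9.23 to 12.3) of ACD cells of the fibroblast-like class. Without thinning the shares were 29.0% and 23.4%, in cells of 7050 and 9104 UMIs in the median, and 53 control and 25 ACD cells under 2000 UMIs were left out. The matching shares in T/NK/ILC-like cells were 0.873% and 0.358%, at unthinned median depths of 3539 and 5305 UMIs, with 60 control and 109 ACD cells left out.

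Sfrp1 (chr8:23411502-23449632), a relative with a similar Wnt-binding domain, differed in the other direction in the dermis. Its level in fibroblast-like cells was 29.6 CPM (27.6 to 31.7) in control and 55.4 (51.9 to 59.1) in ACD, for a log2 ratio of 0.91 (0.77 to 1.04). The C7/Gdf10+ subset had 101 CPM in control and 158 in ACD and the Pi16+ subset 41.2 CPM in control and 80.3 in ACD. It was called higher in Stc1/F13a1-led cells (5.91 CPM in control and 15.7 in ACD) and in reticular/papillary-like cells (27.1 CPM in control and 56.7 in ACD, for a log2 ratio of 1.06 (0.70 to 1.42)), but the latter turned to -1.50 when genes that differed between libraries were kept in the clustering that made the subsets. In all, 4 of 5 fibroblast subsets with at least 50 Sfrp1 UMIs had an interval above 0. Melanocyte-like cells were called higher too, with 27.5 CPM in control and 61.8 in ACD.

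In cartilage Sfrp1 was lower in ACD. Chondrocyte-like cells had 90.01 CPM (87.2 to 92.9) in control and 63.6 (61.0 to 66.2) in ACD, for a log2 ratio of -0.50 (-0.58 to -0.43). The mature state had 134 CPM (129 to 139) in control and 89.2 (84.7 to 94.0) in ACD, for a log2 ratio of -0.59 (-0.68 to -0.49), and 3 of 5 cartilage states had an interval below 0. The Dpt/Vcan-led state went the other way with 24.3 CPM in control and 38.1 in ACD. Non-myelinating glia-like cells had the highest control level, 216 CPM (166 to 277) in control and 162 (130.2 to 199) in ACD.

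**Figure D4:**
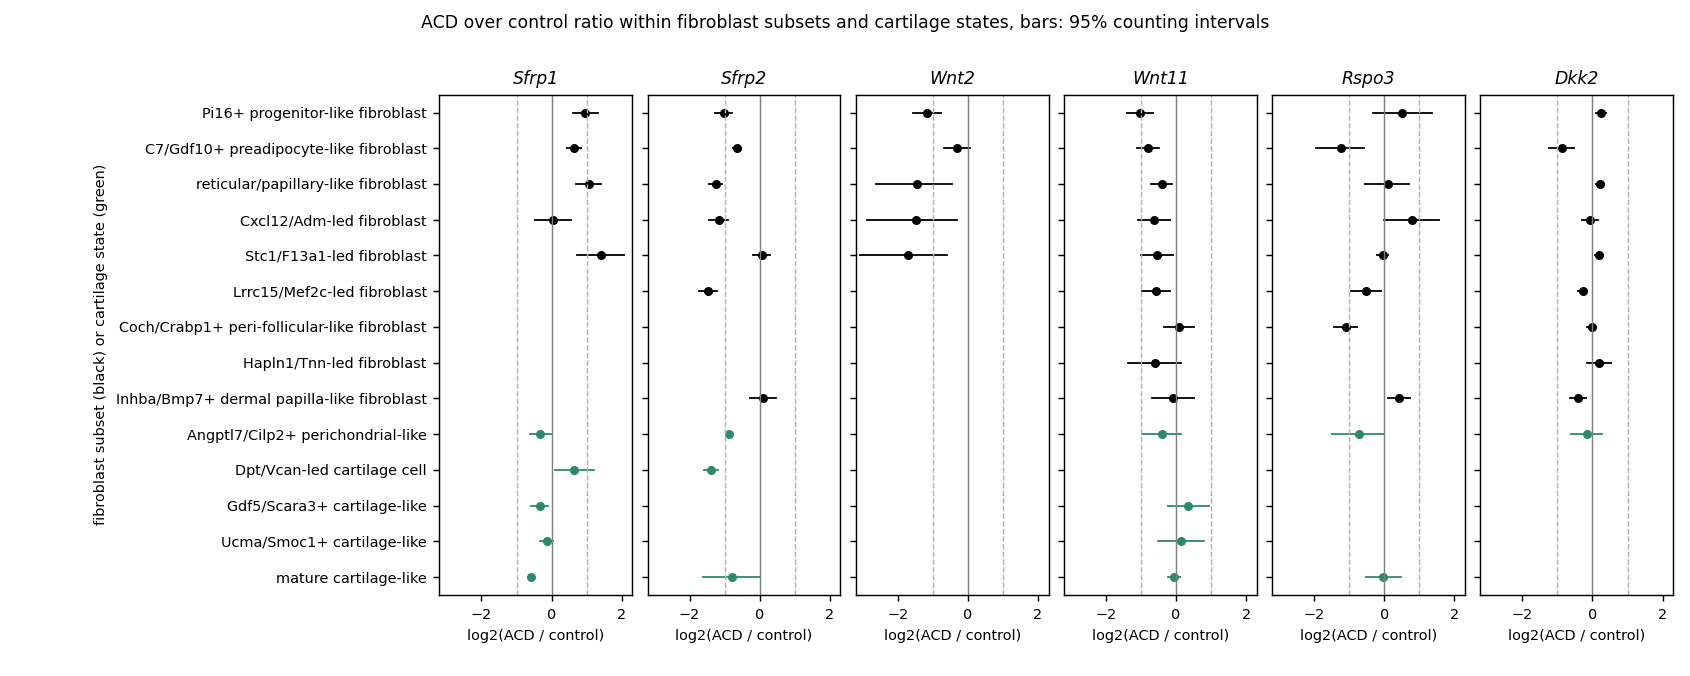
Log2 ratios of ACD over control for Sfrp1, Sfrp2, Wnt2, Wnt11, Rspo3 and Dkk2 in each fibroblast subset (black) and cartilage state (green) with at least 50 UMIs of the gene; lines are 95% counting intervals and dashed lines mark 2-fold. Sfrp2, Wnt2 and Wnt11 lie at or below 0 within their intervals in every fibroblast subset shown, while Sfrp1 lies at or above 0 there (its reticular/papillary-like point turned to -1.50 under another clustering) and below 0 in most cartilage states.

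Sfrp4 and Sfrp5 had narrower ranges. Sfrp4 (chr13:19623104-19632994) belonged to C7/Gdf10+ preadipocyte-like fibroblasts, which held 77.4% of its UMIs in control and 69.7% in ACD. Its level there was 149.9 CPM (138 to 163) in control and 125 (113 to 138) in ACD, for a log2 ratio of -0.26 (-0.46 to -0.07). Sfrp5 (chr19:42197971-42202252) belonged to myelinating Schwann-like cells, with 475 CPM (435 to 518) in control and 446 (412 to 482) in ACD. These cells held 67.0% of all Sfrp5 UMIs in control and 66.5% in ACD. Thinned to 2000 UMIs, 58.3% (51.6 to 64.8) of control and 56.7% (50.4 to 62.9) of ACD cells of this class had a Sfrp5 UMI (unthinned 73.6% and 76.7%). Among thinned T/NK/ILC-like cells, 0 of 802 did in control, which allows a share of up to 0.374%, and 0.119% did in ACD. Perineurial-like cells were second in ACD, 109.6 CPM (84.6 to 139.7) in control and 190.5 (158 to 227) in ACD, for a log2 ratio of 0.80 (0.35 to 1.25). That class also had high sums of dermal fibroblast markers, 72823 CPM in control and 48224 in ACD.

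Of the Dickkopf genes only Dkk2 and Dkk3 had more than 3 UMIs. Dkk2 (chr3:132085292-132180304) was the Dickkopf gene of the dermis, with 88.5% of its UMIs in fibroblast-like cells in control and 84.7% in ACD. Over that class it was level between libraries, 313 CPM (306 to 319) in control and 310.2 (302 to 319) in ACD. Dermal papilla-like (515 CPM in control and 388 in ACD), Lrrc15/Mef2c-led (508 CPM in control and 419 in ACD) and Coch/Crabp1+ cells (448 CPM in control and 439.9 in ACD) led the order in control. In ACD Coch/Crabp1+ cells were highest, and the intervals of Lrrc15/Mef2c-led, Hapln1/Tnn-led (418 CPM) and dermal papilla-like cells overlapped theirs. The C7/Gdf10+ subset, which led for Sfrp2 and Sfrp4, was lowest with 60.6 CPM (52.9 to 69.2) in control and 32.98 (26.9 to 40.0) in ACD, for a log2 ratio of -0.88 (-1.23 to -0.53). Ratios split among the 9 subsets, with 3 intervals above 0 and 3 below. After thinning, 37.8% (36.2 to 39.4) of control and 36.4% (34.1 to 38.8) of ACD cells of the fibroblast-like class had a Dkk2 UMI (unthinned 65.1% and 64.0%), against 0.748% and 0.388% of T/NK/ILC-like cells.

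Dkk3 (chr7:112116017-112159057), a divergent Dickkopf with no settled role at Lrp5 and Lrp6, was the Dickkopf gene of cartilage. Chondrocyte-like cells held 80.8% of its UMIs in control and 79.1% in ACD. Gdf5/Scara3+ cells had 709 CPM (684 to 735) in control and 544 (522 to 566) in ACD, for a log2 ratio of -0.38 (-0.46 to -0.30). Mature cartilage-like cells had 491 CPM in control and 427 in ACD. Of the 5 cartilage states, 4 had an interval below 0, all of them within 2-fold. Melanocyte-like cells were also rich in Dkk3, with 596 CPM (555 to 640.5) in control and 689 (647 to 734) in ACD. Non-myelinating glia-like cells had 237 CPM (184 to 300.0) in control and 104 (79.3 to 135) in ACD, called lower, while myelinating Schwann-like cells had 58.6 CPM in control and 58.2 in ACD. Dkk1 had 0 UMIs in control (up to 0.0325 CPM allowed) and 3 in ACD, and Dkk4 had 1 in each.

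R-spondins peaked in different fibroblast subsets, though some subsets held more than 1 of them. Rspo1 (chr4:124986430-125009099) was highest in the Stc1/F13a1-led subset, 297 CPM (285 to 310.0) in control and 189 (172 to 208) in ACD, for a log2 ratio of -0.65 (-0.80 to -0.50). Coch/Crabp1+ cells had 161 CPM (145 to 179) in control and 182 (167 to 197) in ACD, so the order of these subsets in control was lost in ACD, where their intervals overlapped. Perichondrial-like cells had 137 CPM in control and 129 in ACD. Rspo3 (chr10:29452416-29535867) was highest in dermal papilla-like cells, 218 CPM (185 to 256) in control and 292 (253 to 336) in ACD, followed by the Stc1/F13a1-led subset with 188 CPM in control and 182 in ACD. It was called lower in 2 subsets. In Coch/Crabp1+ cells it was 90.2 CPM (78.0 to 104) in control and 42.0 (35.2 to 49.9) in ACD, for a log2 ratio of -1.10 (-1.43 to -0.77). In C7/Gdf10+ cells it was 19.8 CPM (15.5 to 24.99) in control and 8.41 (5.49 to 12.3) in ACD, for a log2 ratio of -1.24 (-1.95 to -0.57).

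Rspo4 (chr2:151842927-151874668), the R-spondin whose human counterpart is needed for nails, was the only member called over fibroblast-like cells as a whole, 12.3 CPM (11.01 to 13.6) in control and 28.8 (26.3 to 31.5) in ACD, for a log2 ratio of 1.23 (1.03 to 1.43). Within Coch/Crabp1+ cells, which held 67.9% of its fibroblast-like UMIs in control and 81.4% in ACD, the level was 109.9 CPM (96.4 to 125) in control and 126 (113 to 139) in ACD, for a log2 ratio of 0.19 (-0.04 to 0.43). The Coch/Crabp1+ subset made up 12.2% of fibroblast-like cells in control and 25.3% in ACD. With each subset given its control share of UMIs, the Rspo4 ratio over the class came to 0.31 on the log2 scale with 1 CPM added, against 1.17 without this weighting. Rspo2 had 103 UMIs in all, 42 in C7/Gdf10+ fibroblasts and 48 in chondrocyte-like cells.

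Class ratios were also computed with each fibroblast subset given its control share of UMIs. Weighted in this way, the fibroblast-like log2 ratio was -0.04 for Wnt5a (-0.41 unweighted) and -0.10 for Rspo3 (-0.42 unweighted). It was -0.86 for Sfrp2 (-0.88), -0.54 for Wnt11 (-0.55), 0.75 for Sfrp1 (0.91) and -0.98 for Wnt2 (-0.72). The Stc1/F13a1-led subset, the highest for Wnt5a and second for Rspo3 in control, made up 20.1% of fibroblast-like cells in control and 10.1% in ACD, and its part in these class ratios was not tested.

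Counted over all members, the module did not move as a block. In fibroblast-like cells 27 members had at least 50 UMIs, of which 1 (Rspo4) was called higher and 0 lower, where 2.29% of the 12029 genes measured were called higher and 0.59% lower. Their median log2 ratio was -0.03, against -0.01 over all those genes. In chondrocyte-like cells 23 members had enough UMIs, 0 were called in either direction, and 1.17% of 12861 genes were called higher and 0.07% lower. The medians there were -0.08 for the members and -0.05 for all genes.

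**Figure D5:**
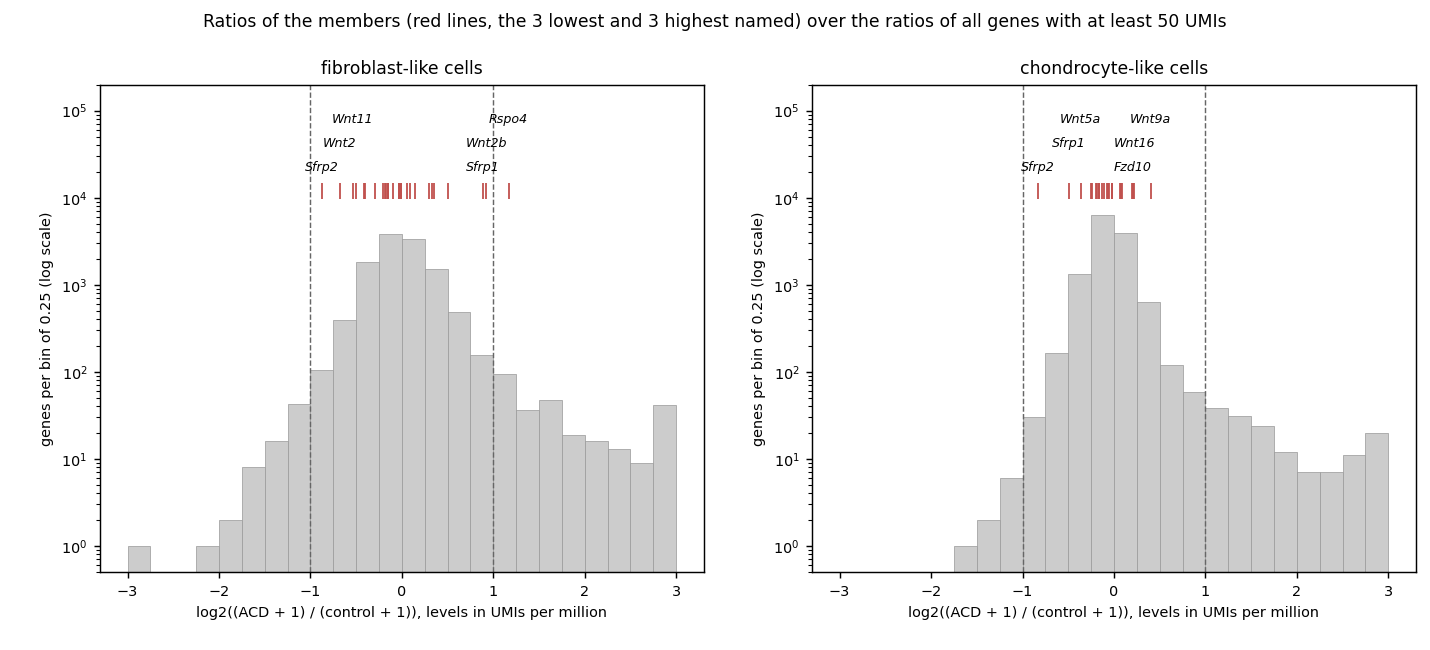
Histograms of log2 ratios of ACD over control (1 CPM added) for all genes with at least 50 UMIs in fibroblast-like and in chondrocyte-like cells, with gene counts on a log axis, end bins holding values beyond 3, and the members drawn as ticks. Rspo4 in fibroblast-like cells is the member tick past 2-fold, and the member medians, -0.03 and -0.08, lie near those of all genes, -0.01 and -0.05.

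Within the fibroblast subsets calls were mostly downward. Of 17 members measured in reticular/papillary-like cells, 1 was called higher and 2 lower (1.66% and 1.62% of all genes measured there). Of 13 in Pi16+ cells, 0 were called higher and 3 lower, namely Wnt2, Wnt11 and Sfrp2 (2.7% and 2.23% of all genes). Cxcl12/Adm-led cells had 0 of 13 called higher and 2 lower (2.45% and 2.89%), and Lrrc15/Mef2c-led cells 0 of 17 higher and 1 lower (1.4% and 1.6%). In the Stc1/F13a1-led subset 1 of 20 was called higher and 1 lower (1.8% and 1.37%). The C7/Gdf10+ subset had 0 of 17 called higher and 1 lower (1.53% and 0.954%), as had the Coch/Crabp1+ subset (1.66% and 0.425%), Rspo3 in both. None of 11 was called in dermal papilla-like cells (1.33% higher and 1.47% lower) and none of 5 in Hapln1/Tnn-led cells (1.94% and 1.17%). The 6 markers that name Pi16+ cells summed to 2395 CPM in control and 1615 in ACD, with all 6 lower in ACD. Marker sums were also lower in C7/Gdf10+ (4957 and 2492 CPM), reticular/papillary-like (6548 and 4290) and dermal papilla-like cells (8139 and 6709). In Coch/Crabp1+ cells the sum was higher in ACD (15986 and 20649). The part of these differences in the calls was not tested.

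Cartilage states had a single call. The Dpt/Vcan-led cells had 0 of 12 members called higher and 1 lower, Sfrp2 (0.909% and 0.922% of all genes). None was called among 20 members measured in perichondrial-like cells (1.2% higher and 0.271% lower), 13 in Gdf5/Scara3+ cells (0.96% and 0.226%), 13 in Ucma/Smoc1+ cells (1.19% and 0.397%) or 19 in mature cartilage-like cells (0.733% and 0.0948%). The widest ratios in these 4 states were those of Rspo1 in mature cells, 7.76 CPM in control and 3.97 in ACD, and Sfrp2 in perichondrial-like cells.

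Counts this small rest on 1 to 3 genes per subset, and most calls ended under at least 1 of the alternative settings. In these counts of settings, here and below, those that only lowered the minimum of UMIs leave a ratio unchanged and could not end a call. The calls of Sfrp2 in Cxcl12/Adm-led and Lrrc15/Mef2c-led cells stayed past 2-fold under the 7 and 13 settings that could recompute them. In Pi16+ cells those of Sfrp2 and Wnt2 ended under 5 of 12 settings and that of Wnt11 under 4, with log2 ratios as near to 0 as -0.58, -0.66 and -0.87. In reticular/papillary-like cells Sfrp1 ended under 9 of 14 settings, Wnt2 under 2 (-0.64) and Sfrp2 under 1 (-0.66), all 3 with genes that differed between libraries kept in the clustering. Rspo3 ended under 4 of 14 settings in C7/Gdf10+ cells (-0.66) and under 2 in Coch/Crabp1+ cells (-0.83). In Stc1/F13a1-led cells Wnt2 ended under 3 of 11 settings (-0.61) and Sfrp1 under 1 (0.69). Wnt2 in Cxcl12/Adm-led cells ended with 10 CPM added (-0.82), Sfrp2 in Dpt/Vcan-led cells with the mean over cells (-0.92), and Rspo4 over fibroblast-like cells under 4 of 15 settings.

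In vascular classes every call was downward, and the summed dermal fibroblast markers were lower in ACD too. Vascular smooth muscle-like cells had 0 of 14 members called higher and 5 lower (1.71% and 3.7% of all genes), namely Fzd1, Fzd2, Fzd5, Sfrp2 and Dkk2. The Fzd1 call ended under 7 and the Fzd2 call under 6 of 14 alternative settings, at log2 ratios as near to 0 as -0.61 and -0.66, while the other 3 stayed past 2-fold. Pericyte-like cells had 0 of 9 called higher and 3 lower (2.16% and 3.07%), namely Fzd8, Sfrp2 and Dkk3. Sfrp2 went from -2.77 to -0.92 with the mean over cells and Dkk3 from -1.38 to -0.54 with all deposited barcodes, which ended both calls. The summed dermal fibroblast markers, 7 of 7 detected, were 13127 in control and 2492 in ACD in vascular smooth muscle-like cells, and 9819 and 6674 in pericyte-like cells. Sfrp2 and Dkk2 were at 47.8 CPM in control and 3.43 in ACD and at 40.7 CPM in control and 8.00 in ACD in vascular smooth muscle-like cells, and the part of fibroblast RNA in these results was not tested. The fibroblast-like level of Fzd5 was 15.5 CPM in control, and the part of fibroblast RNA in its ratio was not tested either. Endothelial-like cells had 0 of 4 called higher and 1 lower (3.72% and 3.03%), Dkk3 (-0.77 with Scrublet calls removed, within 2-fold), with fibroblast marker sums of 8969 and 2053. The sums of 11 cartilage markers were 642 and 486 in vascular smooth muscle-like, 324 and 173 in pericyte-like, and 480.3 and 421 CPM in endothelial-like cells, with 1 of 11 at 0 in each, and the part of cartilage RNA in the Dkk3 values was not tested.

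Among the other classes, 0 of 5 members were called higher and 1 lower in non-myelinating glia-like cells (2.97% and 2.09% of all genes), Dkk3, and 0 of 6 higher and 1 lower in perineurial-like cells (2.7% and 1.51%). The latter was the cartilage receptor Fzd9, 72.5 CPM in control and 20.1 in ACD. The cartilage marker sums were 581 and 517 CPM in non-myelinating glia-like and 805 and 579 in perineurial-like cells, the fibroblast marker sums 9684 and 4913 CPM and 72823 and 48224 CPM, with 1 or 2 of the 11 cartilage and none of the 7 fibroblast markers at 0, and their part in these calls was not tested. The Dkk3 call in glia-like cells ended with the stricter cell filter (-0.72) and the Fzd9 call with the mean over cells (-0.82). The 8 markers that name non-myelinating glia-like cells summed to 2487 CPM in control and 1659 in ACD, with 7 lower in ACD. The perineurial markers summed to 518 and 864 CPM. The part of these marker differences in the calls was not tested. In melanocyte-like cells 1 of 6 was called higher, Sfrp1, and 0 lower (1.95% and 1.25%). In T/NK/ILC-like cells 0 of 12 were called higher and 2 lower (3.67% and 5.89%), Wnt11 and Sfrp2, both at under 10 CPM. With 10 CPM added these 2 calls (-0.47 and -0.44) and that of Sfrp1 in melanocyte-like cells (0.94) ended. No member was called in either direction among 12 measured in keratinocyte-like cells (2.32% higher and 1.54% lower), 8 in myelinating Schwann-like cells (2% and 0.63%), 3 in mononuclear phagocyte-like cells (6.1% and 4.44%) or 2 in muscle satellite-like cells (1.6% and 3.23%). Mast cell-like cells had no member with 50 UMIs (2.69% and 4.08%).

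The rest of the pathway was taken from a list of 51 genes outside the name rule. In fibroblast-like cells 47 were measured, 1 was called higher and 1 lower (2.29% and 0.59% of all genes), and the median log2 ratio was -0.04. The 1 higher was Wif1, a secreted Wnt-binding inhibitor, at 109 CPM (106 to 113) in control and 223 (216 to 230.0) in ACD. Chondrocyte-like cells held it at 3847 CPM in control and 3180.1 in ACD and T/NK/ILC-like cells at 79.0 CPM in control and 100.1 in ACD, and the part of cartilage RNA in the fibroblast-like value was not tested. Under 8 of the alternative settings Wif1 stayed within 2-fold. With each subset given its control share of UMIs, the Wif1 log2 ratio with 1 CPM added came to 0.56, also within 2-fold. The 1 lower was Frzb, another secreted Wnt-binding protein, at 21.2 CPM (19.6 to 23.0) in control and 6.66 (5.48 to 8.01) in ACD, for a log2 ratio of -1.67 (-1.98 to -1.38). In chondrocyte-like cells 44 were measured, 0 were called (1.17% of all genes higher and 0.07% lower) and the median was -0.10.

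By role, 0 of 14 co-receptor and receptor-turnover genes and 0 of 3 ligand-secretion genes measured in fibroblast-like cells were called. The same held for 0 of 15 genes of the intracellular cascade and 0 of 9 feedback and target genes. Over all genes in fibroblast-like cells 2.29% were called higher and 0.59% lower, so lists this short cannot set these roles apart from other genes. Axin2, the feedback gene most used as a readout of canonical signaling, was 61.2 CPM in control and 45.2 in ACD there and 35.5 CPM in control and 31.2 in ACD in chondrocyte-like cells. Frzb was called lower in reticular/papillary-like (28.5 CPM in control and 4.24 in ACD), Cxcl12/Adm-led (31.9 CPM in control and 5.30 in ACD), Lrrc15/Mef2c-led (18.9 CPM in control and 2.18 in ACD) and Stc1/F13a1-led cells (22.7 CPM in control and 6.54 in ACD), and higher in Dpt/Vcan-led cartilage cells (29.98 CPM in control and 64.0 in ACD). Lgr5, an R-spondin receptor, was called higher in Pi16+ (10.4 CPM in control and 22.4 in ACD) and Stc1/F13a1-led cells (5.78 CPM in control and 13.5 in ACD). Draxin, a secreted antagonist known from axon guidance, was called higher in Pi16+ cells (8.24 CPM in control and 21.4 in ACD), and Wif1 in Stc1/F13a1-led cells (118 CPM in control and 241 in ACD).

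Gpc3, a heparan sulfate proteoglycan that binds Wnt proteins, was called lower in Pi16+ cells (355 CPM in control and 172 in ACD) and in Dpt/Vcan-led cartilage cells (29.1 CPM in control and 11.7 in ACD). Notum, the enzyme that removes the lipid of Wnt proteins, was called lower in dermal papilla-like cells, 240.1 CPM (205 to 279.7) in control and 91.7 (70.4 to 117) in ACD. Nkd1, a feedback inhibitor that binds Dishevelled, was called lower in C7/Gdf10+ cells (38.6 CPM in control and 15.5 in ACD), the same subset in which Rspo3 was called lower. Calls of pathway genes within subsets and cartilage states were not recomputed under the alternative settings. The number of pathway genes measured in each is not given here. These calls are therefore not set against the called shares of all genes given above.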

How the data were processed

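Single-cell suspensions of ear skin gave 1 control and 1 ACD library (Chromium 3′ kit). Per the submitters' processing notes, Cell Ranger 3.1.0 was used with the mm10 genome. What the authors deposited is the UMI count per gene and barcode, not normalized, and every value was computed from these counts.

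Barcodes passed with over 200 but under 5000 genes, no more than 25000 UMIs and less than 8% of UMIs mitochondrial. Counts were scaled to 10000 per cell and ln(1 + x) taken. The 2000 most variable genes, without members and pathway genes, were reduced to 30 principal components and clustered by Leiden at resolution 1 on 20 nearest neighbors. Fibroblast-like and chondrocyte-like cells were clustered again at resolution 0.8 without genes over 1.5-fold apart between the libraries, which was decided after seeing the clusters. Clusters were named by the marker list with the largest mean log2 fold, given 3 markers present in 10% of cells. No doublet caller was used beyond setting mixed clusters aside, and Scrublet, which marked 560 control and 392 ACD cells, served as an alternative.

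Classes with at least 30 cells per library were compared by sums of counts, with exact Poisson intervals for levels, Clopper-Pearson intervals for ratios and shares, and 3 counts as the floor of a 0. No paired or replicate test was possible. Every member was counted, levels were printed for the 28 members with at least 100 UMIs in a class, and the other 13 were given by total UMIs. Pathway genes were named where called in fibroblast-like or chondrocyte-like cells or their subsets. The members and lists were chosen with earlier results of these data known. Alternatives changed the cell filter, doublets, clustering, gates, weighting, size factors (median of ratios), added value and minimum UMIs. Scripts were tested on simulated data.

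Gene positions are GRCm38 (GENCODE M21), promoter windows RefSeq, GRCm38.p6. Tools were Python 3.11.15, numpy 2.4.6, scipy 1.17.1, pandas 2.3.3, scikit-learn 1.9.0, scanpy 1.11.5, igraph 0.11.9 and matplotlib 3.10.9.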

Additional observations from a re-analysis of the deposited data

Results flagged for a closer look

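Sfrp1 went in opposite directions in the dermis and the cartilage. Its log2 ratio of ACD over control was 0.91 in fibroblast-like cells and -0.50 in chondrocyte-like cells, and the counting intervals lay on opposite sides of 0. The difference between the classes was not tested, since each condition had 1 library.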

How the results depend on the processing

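Of 232 values recomputed under alternatives for 24 summary results, 194 stayed close to the value reported and 38 moved. Of 4450 member ratios recomputed, 4156 did not move. Settings with a lower minimum of UMIs leave each ratio unchanged. A reversal was counted only for the 29 called ratios. Of these, 1 reversed, Sfrp1 in reticular/papillary-like fibroblasts, at -1.50 with library-dependent genes kept in the second clustering. That setting, the removal of shared barcodes, the control weighting of subsets and all pathway settings but 4 were chosen after seeing the data. Median-of-ratios size factors shifted the log2 ratios of all genes upward, by 0.14 in T/NK/ILC-like, 0.13 in Pi16+, 0.11 in Cxcl12/Adm-led and 0.10 in reticular/papillary-like and Lrrc15/Mef2c-led cells, and by under 0.1 in either direction elsewhere.

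Over fibroblast-like cells, the number of members called higher was 0 with all deposited barcodes, with gates on marker UMIs and with 10 CPM added, and 2 with the mean over cells. The number called lower was 1 with all variable genes in the clustering and with the mean over cells. Pathway genes called higher there numbered 0 with all deposited barcodes, with the stricter filter of 500 genes and 5% mitochondrial UMIs, at resolutions 0.5 and 2, with all variable genes, with gates, with 10 CPM added and with library-dependent genes kept, and 2 with the mean over cells. Those called lower numbered 0 with gates and with 10 CPM added. In chondrocyte-like cells 1 member was called lower with the stricter filter and at resolution 2. Summed over the other classes and subsets, 3 member ratios were called higher, and 5 with all deposited barcodes, with Scrublet calls removed and with the mean over cells, 6 with the stricter filter, 0 with 10 CPM added, 14 with a minimum of 20 UMIs, 48 with no minimum and 1 with library-dependent genes kept. Those called lower numbered 25, and 9 with gates, 16 with the mean over cells, 12 with 10 CPM added, 49 with a minimum of 20 UMIs and 112 with no minimum. The main setting measured 338 member ratios, those of fibroblast-like and chondrocyte-like cells included. Called shares of all genes were not computed under the alternatives. In the main setting they ran from 5.89% lower and 3.67% higher in T/NK/ILC-like to 0.271% and 1.2% in perichondrial-like cells. These totals therefore cannot set the members apart from other genes. Gates made 7999 control and 4870 ACD cells fibroblast-like and 1758 and 1323 chondrocyte-like. Thinning to 1000 UMIs moved the difference in the share of fibroblast-like cells with a Sfrp1 UMI from 2.53 to 0.206 percentage points, and that of chondrocyte-like cells with a Dkk3 UMI from -5.54 to -2.75. The settings with a lower minimum test more genes, gates sort other cells into the classes, and for the remaining settings the cause was not tested.

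Of the 29 called member ratios, 6 stayed past 2-fold under every alternative that could recompute them. With a minimum of 20 UMIs and with no minimum all 29 stayed, since these settings leave a ratio unchanged and could not end a call. By setting, 27 stayed past 2-fold with median-of-ratios size factors, 18 of 29 with the mean over cells, 12 of 29 with 10 CPM added, 6 of the 15 that gates could recompute and 18 of the 22 recomputed with library-dependent genes kept. No paired analysis was possible because each condition had 1 library. Counting error limits ratios of genes near 50 UMIs, animals per library are not given, and no value here speaks of the spread between mice.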

Other observations

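Wnt10b, which lies 11.7 kb from Wnt1, had 36 of its 60 UMIs in T/NK/ILC-like cells. By level it was at 1.497 CPM (1.04 to 2.09) in these cells in ACD, and keratinocyte-like cells, at 1.60 (0.436 to 4.09) in control and 1.06 (0.129 to 3.84) in ACD, did not differ from that beyond counting error. Over all cells kept it had 13 UMIs in control and 47 in ACD, and T/NK/ILC-like cells were 7.06% of control and 29.7% of ACD cells.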
